A study of Mus musculus with 12 samples.

Results

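Livers of mice given an adenovirus that carried a short hairpin RNA (shRNA) against Rgs16 were compared with livers given the same kind of virus with a hairpin against the bacterial lacZ gene, which mice do not have. The members are all samples of these groups by their titles, 4 shRgs16 and 4 shLacZ samples, 8 of the 12 samples in the series; the remaining 4 received a hairpin against G0s2 and are used at the end. All groups were wild-type C57BL/6J mice (strain label C57BL/6) aged 8 weeks. Each received 0.1 OD of virus through the tail vein, and liver was taken 12 days later at ZT12, which is 12 h after lights on, following 6 h without food. The virus was therefore shared by every group, and no uninfected liver was analysed here. The sources used here do not give the hairpin sequences, the sex of the mice or whether replicates came from separate animals. P-values therefore speak of the spread among these samples only, which may be technical. All 55536 genes of the deposited table were considered and 15324 had enough counts to be tested.

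RGS proteins (regulators of G protein signalling) speed the hydrolysis of GTP by the alpha subunits of heterotrimeric G proteins and so shorten the signal that a hormone receptor sends. RGS16 acts on alpha subunits of the Gi and Gq classes. In liver, receptors of these classes and of the Gs class carry signals of glucagon, adrenaline, vasopressin and extracellular nucleotides to glucose and fat metabolism, and Rgs16 itself is known as a gene of periportal hepatocytes that follows feeding time and carbohydrate supply.

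Total counts were 25636504 to 26472233 per sample in shLacZ and 24855361 to 27170443 in shRgs16. The first principal component of the tested genes held 63.6% of the variance and separated the groups. Levels below are CPM (counts scaled by library total and by the TMM method of edgeR), listed for replicates 1 to 4 in order, and log2 fold changes (shRgs16 over shLacZ) and adjusted p-values come from edgeR's quasi-likelihood test with Benjamini-Hochberg adjustment. The liver label was checked against defining genes: the summed level of 15 hepatocyte markers was 68093 to 82758 CPM in shLacZ and 77890.2 to 82409 in shRgs16. RNA came from whole liver, so fewer cells of a type and less RNA per cell cannot be told apart. Near-identical gene copies (Gstm, Cyp2a, Cyp3a, Ces, Ugt1a, Serpina1, Serpina3, Sult2a, Amy2a, Mup and Vmn2r families) share reads, so their values are uncertain copy by copy.

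Rgs16, on mouse chromosome 1, was lower in every shRgs16 sample than in every control. It read 96.99, 196, 140.3 and 117 CPM in shLacZ and 13.3, 18.2, 34.3 and 30.7 in shRgs16. The groups did not overlap, and the log2 fold change of -2.51 had an SE of 0.378 (95% interval -3.44 to -1.59, adjusted p 0.00172). G0s2, an inhibitor of adipose triglyceride lipase and the target of the other hairpin, was 80.6, 68.5, 61.2 and 61.7 CPM in shLacZ and 81.5, 53.3, 63.5 and 78.1 in shRgs16. These values overlapped, with a log2 difference of 0.02 (95% interval -0.33 to 0.38, adjusted p 0.909).

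Among all tested genes 24.6% were called higher and 24.5% lower, so the counts that follow should be read against those shares. Of 21 RGS genes 10 were tested; 5 rose (Rgs1, Rgs2, Rgs10, Rgs12 and Rgs19), and Rgs4 and Rgs5 fell beside Rgs16; these few were named after their values were seen. Rgs4 was 1.20, 1.48, 1.06 and 3.49 CPM in shLacZ and 0.823, 0.436, 0.862 and 0.843 in shRgs16, and its fall of 1.28 (adjusted p 0.0198) lost its call without shLacZ replicate 4 (-0.75, adjusted p 0.0610) or shRgs16 replicate 2 (-1.09, adjusted p 0.0582). The fall of Rgs5, 0.26 (adjusted p 0.0172), lost its call without shRgs16 replicate 4 (-0.21, adjusted p 0.0518) and with library size alone, where the difference was 0.04. Of 22 tested G protein subunit genes 8 rose and 2 fell, with a median log2 difference of 0.05 against 0.01 over all genes; with library size in place of TMM the counts were 15 and 1. Gnai2, an inhibitory alpha subunit that RGS16 acts on, was 101, 100.3, 103 and 91.03 CPM in shLacZ and 138, 138, 125 and 135 in shRgs16. All 4 shRgs16 samples were above all controls, a rise of 0.44 (adjusted p 8.3e-05). Gng2, a gamma subunit, rose from 5.04 ± 0.694 to 11.1 ± 1.03 CPM (SD, n = 4 each; log2 fold change 1.14, adjusted p 1.8e-05), and the gamma subunit Gng11 rose from 3.47 ± 0.347 to 6.35 ± 1.17 CPM (0.87, adjusted p 6.6e-04). The alpha subunits of the glucagon and of the phospholipase C pathways were not called: Gnas had a log2 difference of -0.09 (adjusted p 0.236) and Gnaq of -0.01 (adjusted p 0.898), and with library size alone both were called higher, at 0.21 (adjusted p 0.0202) and 0.29 (adjusted p 0.00514).

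Receptor genes moved in both directions, as all tested genes did. Of 29 tested genes of G protein coupled receptors of liver 10 rose (34.5%) and 9 fell (31.03%), with a median of 0.24. With library size alone the counts were 16 and 3. Gcgr, the glucagon receptor, was 194, 175, 167 and 179 CPM in shLacZ and 105, 100.1, 108 and 100.1 in shRgs16. Every shRgs16 sample lay under every control, a fall of 0.79 on the log2 scale (SE 0.0593, adjusted p 1.8e-06). Adra1b, the alpha-1B adrenergic receptor that couples to Gq, was 44.5, 42.4, 51.1 and 40.96 CPM in shLacZ and 31.2, 24.9, 30.7 and 27.5 in shRgs16, again without overlap, and fell by 0.65 (adjusted p 1.1e-04). P2ry4, a receptor for extracellular nucleotides, was 10.7, 10.3, 9.75 and 9.85 CPM in shLacZ and 5.30, 4.56, 4.60 and 3.67 in shRgs16. It fell by 1.16 (adjusted p 1.5e-05). Avpr1a, the vasopressin V1a receptor, moved the other way. It was 4.51, 3.01, 3.21 and 4.62 CPM in shLacZ and 7.94, 10.2, 7.54 and 15.1 in shRgs16, a rise of 1.41 without overlap (SE 0.243, adjusted p 9.5e-04).

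Downstream, 10 of 31 tested genes of cAMP and phospholipase C signalling rose and 6 fell, against 22 and 1 with library size alone. Adcy3, an adenylyl cyclase, was 1.20, 1.39, 1.46 and 1.26 CPM in shLacZ and 3.36, 4.89, 2.69 and 3.59 in shRgs16, a non-overlapping rise of 1.45 (adjusted p 1.4e-04). Adcy1, another cyclase, rose from 1.002 ± 0.460 to 2.94 ± 0.473 CPM (1.54, adjusted p 6.5e-04). Adcy6, a cyclase of hepatocytes, went from 57.9 ± 4.76 to 46.3 ± 3.90 CPM, a fall of 0.32 (adjusted p 0.00398) that was not called with library size alone (-0.02).

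**Figure D1:**
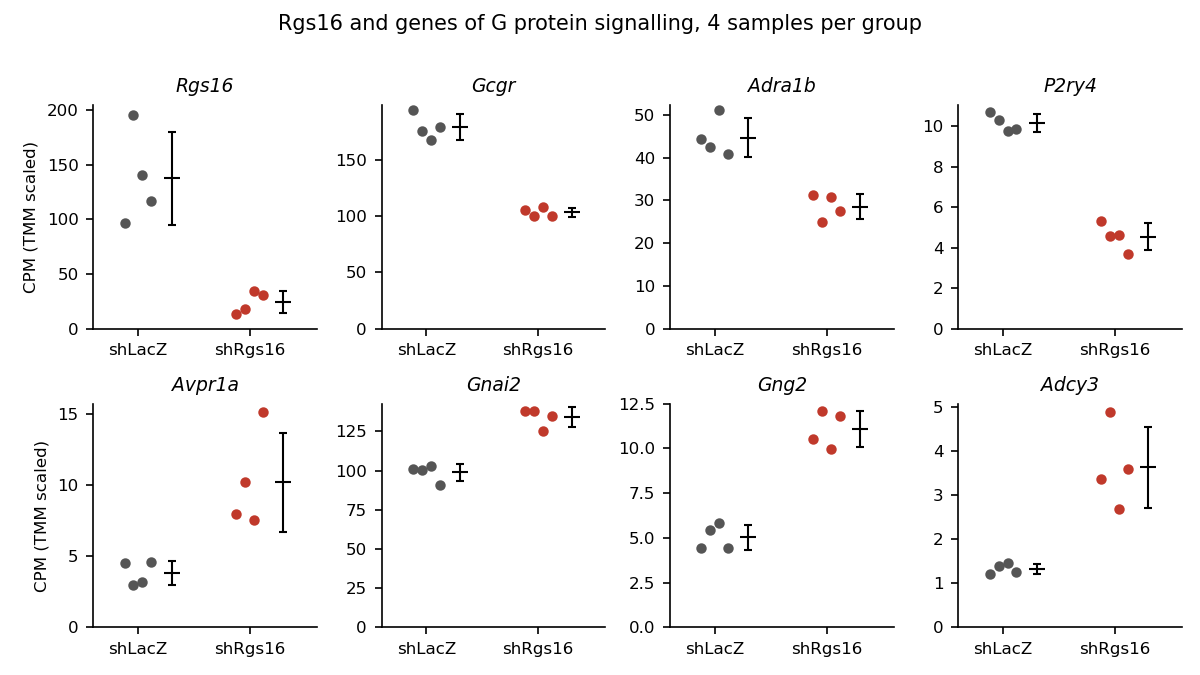
Levels (CPM, TMM-scaled, linear axes) of Rgs16 and 7 genes of receptor and G protein signalling in the 4 shLacZ and 4 shRgs16 samples; points are samples, bars are group means with SD. In each panel the groups do not overlap: Rgs16, Gcgr, Adra1b and P2ry4 are lower and Avpr1a, Gnai2, Gng2 and Adcy3 higher in shRgs16.

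Across the transcriptome 3771 genes rose and 3749 fell, and 1081 (7.05%) and 457 (2.98%) did so by 2-fold or more. The groups did not overlap in 6897 genes, 45.0% of those tested. This balance depends on the scaling. Mup genes, which encode urinary pheromone carriers, took 10.7, 11.03, 9.56 and 10.7% of counts in shLacZ and 2.49, 1.16, 3.31 and 2.14% in shRgs16 (exact permutation test, two-sided p 0.0286, the smallest that 4 against 4 samples allow), and the 100 genes highest in shLacZ took 42.1% ± 1.45 and 35.5% ± 0.522 (SD, n = 4 each). With library size alone the median of all genes shifted to 0.31, and 7683 genes (50.1%) were called higher and 1280 (8.35%) lower. Directions below are relative to TMM.

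**Figure D2:**
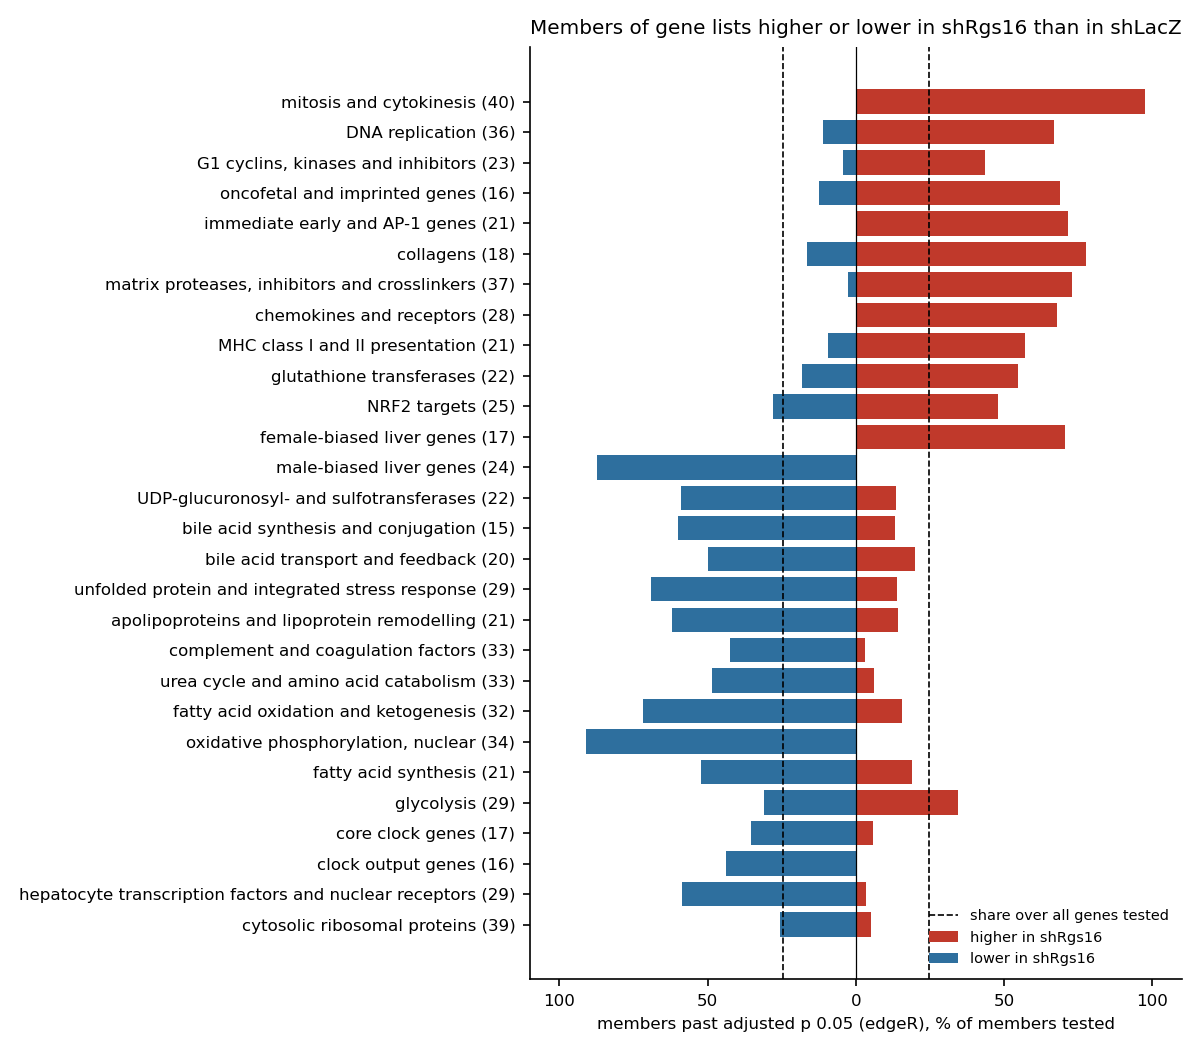
Share of the tested members of 28 gene lists called higher (right) or lower (left) in shRgs16, in percent; dashed lines mark the shares of all tested genes, 24.6% and 24.5%. The bars of mitosis (39 of 40 higher), male-biased genes (21 of 24 lower) and nuclear oxidative phosphorylation (31 of 34 lower with this scaling) reach far past the dashed lines.

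The increases of largest fold included fetal liver genes, a sex-dependent enzyme and genes known from other tissues. H19, an imprinted long non-coding RNA of fetal liver, was 0.858, 1.35, 0.975 and 1.35 CPM in shLacZ and 93.8, 211, 131 and 197 in shRgs16. Every shRgs16 sample was above every control, and H19 rose by 7.12 on the log2 scale (SE 0.394, adjusted p 1.4e-05). Cacna1b, a neuronal calcium channel subunit, rose from 0.108 ± 0.0756 to 8.22 ± 3.12 CPM (6.21, adjusted p 3.2e-06), and Tmc5, a transmembrane channel-like gene, from 0.0754 ± 0.0427 to 2.86 ± 1.43 CPM (5.17, adjusted p 2.0e-05). Bmp8b, a bone morphogenetic protein, rose from 0.183 ± 0.0757 to 3.63 ± 0.911 CPM (4.29, adjusted p 1.9e-06). Cyp3a44, a female-biased cytochrome P450, rose from 0.0436 to 0.436 CPM across the controls to 3.20 to 7.41 (4.28, adjusted p 1.9e-05). Akr1b7, an aldo-keto reductase, was 0.129, 0.131, 0.122 and 0.566 CPM in shLacZ and 3.79, 10.4, 4.42 and 7.48 in shRgs16. Its rise of 4.77 (adjusted p 1.2e-04) was 5.63 without shLacZ replicate 4, the highest control.

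Amy2a3, a pancreatic amylase, was 0.0429, 0.0436, 0 and 0 CPM in shLacZ and 16.8, 49.6, 15.8 and 22.7 in shRgs16. The controls held 2 reads in all and shRgs16 3047, a ratio of normalised level of 1239.5 with a 95% counting interval of 343 to 10239.8. That interval pools reads and leaves out the spread among samples. The edgeR test gave a log2 fold change of 9.97 (SE 0.935, 95% interval 7.68 to 12.26, adjusted p 1.5e-04). Among 22 pancreatic acinar markers 4 were tested and all of those rose, among them Spink1, a trypsin inhibitor also made by regenerating and tumour hepatocytes, from 1.005 ± 0.204 to 4.87 ± 0.739 CPM (2.27, adjusted p 3.9e-06). The summed level of the list was 10.5 to 14.6 CPM in shLacZ and 40.8 to 72.9 in shRgs16, and 14 and 12 of the members were at 0 in every sample of the group. The trypsinogens Prss1, Prss2, Try4 and Try5 and the carboxypeptidases Cpa1 and Cpb1 were at 0 in all 8 samples. So were the lipases Pnlip and Cel and the transcription factor Ptf1a, all named after their values were seen. In these samples 11 of the 22 members had a count. The source of these reads was not tested.

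The decreases of largest fold included enzymes and secreted binding proteins. How these genes stood in the G0s2 hairpin group is given at the end. Moxd1, a monooxygenase-like protein, was 239, 188, 67.9 and 247 CPM in shLacZ and 4.48, 0.637, 3.77 and 1.25 in shRgs16. It fell by 6.18 (SE 0.703, adjusted p 5.0e-04), and no shRgs16 sample came near a control. Obp2a, an odorant-binding lipocalin, was 213, 298, 243 and 248 CPM in shLacZ and 22.2, 14.8, 41.3 and 20.3 in shRgs16. It fell by 3.35 (adjusted p 2.2e-04). Kcnk1, a potassium channel, dropped by 3.65 (adjusted p 0.00218); leaving out shRgs16 replicate 3, where it was highest in its group, gave -4.36. Cfap53, a cilium protein, fell by 3.90 (adjusted p 4.5e-05) and Slc15a5, a peptide transporter, by 3.27 (adjusted p 8.2e-07). Ces4a and Ces2b, carboxylesterases, fell by 3.11 (adjusted p 1.9e-04) and 2.89 (adjusted p 7.6e-04), Sult2a7, a sulfotransferase, by 3.23 (adjusted p 1.9e-05) and Vmn2r20, a vomeronasal receptor gene, by 2.84 (adjusted p 5.9e-04). Hectd2os fell by 3.38 (adjusted p 2.6e-06); it lies opposite another gene, and no source used here gives the strand setting of the counts.

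Genes of fetal and tumour liver rose as a group, while 4 of 7 tested genes listed as their repressors fell and 1 rose, or 2 and 2 with library size alone. The 16 tested oncofetal and imprinted genes had a median of 1.09: 11 rose and 2 fell. Afp, alpha-fetoprotein, the main fetal serum protein, was 1.16, 1.31, 1.62 and 1.61 CPM in shLacZ and 19.1, 55.8, 17.9 and 25.1 in shRgs16. The groups did not overlap, and Afp rose by 4.37 (SE 0.513, adjusted p 4.6e-04). Igf2, a fetal growth factor, was 0.129, 0.523, 0.284 and 0.523 CPM in shLacZ and 4.31, 17.9, 4.24 and 8.69 in shRgs16, and rose by 4.58 (adjusted p 0.00146). The shRgs16 samples were uneven, and without replicate 2, their highest, the value was 3.97. Zhx2, a repressor of Afp and H19 in the adult, was 17.9, 18.7, 18.6 and 14.2 CPM in shLacZ and 11.2, 10.4, 11.5 and 10.4 in shRgs16, a fall of 0.68 (adjusted p 1.4e-04) without overlap. Zbtb20, a further repressor of Afp, was 142, 208, 184 and 139 CPM in shLacZ and 92.5, 106, 146 and 132 in shRgs16. These overlapped, and the difference of -0.50 did not pass (adjusted p 0.0549), though it did without shRgs16 replicate 3 (-0.62), without shLacZ replicate 1 or 4 (-0.58 for each) and in DESeq2 (adjusted p 0.00671).

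Cell division genes were higher. Of 40 tested genes of mitosis and cytokinesis 39 rose and none fell (median 1.71), and of 36 DNA replication genes 24 rose and 4 fell (median 0.50), or 30 and 2 with library size alone. Cdc20, which activates the complex that ends metaphase, was 1.76, 1.09, 1.91 and 0.959 CPM in shLacZ and 8.60, 9.66, 5.85 and 7.70 in shRgs16. Cdk1, the kinase that starts mitosis, was 4.16, 3.40, 4.06 and 3.88 CPM in shLacZ and 10.4, 14.1, 8.83 and 10.1 in shRgs16. All shRgs16 samples were above the controls for both, by 2.47 (SE 0.229, adjusted p 7.5e-06) and 1.49 (SE 0.152, adjusted p 1.4e-05), and Ccnb1, the cyclin partner of CDK1, rose by 2.47 (adjusted p 6.4e-06). Mcm5, a subunit of the replicative helicase, rose from 5.76 ± 0.425 to 14.3 ± 2.51 CPM (1.31, adjusted p 1.2e-05), and Cdc6, which loads that helicase, from 0.637 ± 0.130 to 1.69 ± 0.359 CPM (1.40, adjusted p 7.9e-04). Of 23 genes of G1 control 10 rose and 1 fell. Ccnd1, cyclin D1, was 19.8, 19.2, 18.3 and 19.9 CPM in shLacZ and 46.3, 49.7, 37.5 and 41.6 in shRgs16, a rise of 1.18 without overlap (adjusted p 1.6e-06), and E2f2, an S phase transcription factor, rose by 1.15 (adjusted p 0.00362). Ccne1, cyclin E1, the partner of the kinase of S phase entry, was 4.89, 3.01, 3.98 and 2.88 CPM in shLacZ and 4.28, 3.92, 3.59 and 3.59 in shRgs16. These overlapped, with a difference of 0.06 (95% interval -0.38 to 0.50, adjusted p 0.803). Cdkn1a, the inhibitor p21, differed by 0.23 (adjusted p 0.425), which passed only without shLacZ replicate 3 among the left-out samples (0.46, adjusted p 0.0237). Of 17 YAP and TEAD targets 9 rose and 2 fell: Ccn2, a matricellular growth factor, rose by 1.23 (adjusted p 4.0e-05), and Ddah1, an enzyme that clears methylarginines, fell from 128 ± 7.26 to 53.1 ± 2.27 CPM (by 1.27, adjusted p 8.8e-08).

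The promoters of the mitotic genes were searched, on both strands, for the CCAAT box (CCAAT) and the CHR element (TTTGAA), motifs known from cell cycle promoters. Promoter sequences were RefSeq's for GRCm38.p6, 250 bases before to 50 after the start site, and 32 of the 40 tested mitosis genes had one. The CCAAT box stood in 24 of them (75%, against 41.1% of 27025 genes) and the CHR element in 24 (75%, against 20.2%). All 32 were called higher, so no comparison by direction was possible within this list. Since the motifs are known from such genes, no conclusion on the rise is drawn from the excess. For DNA replication genes the E2F site (TTTCCCGC or TTTGGCGC) was found in 10 of 22 that rose (45.5%). It was in 0 of 2 that fell and 1 of 6 not called (16.7%), against 1.8% of all genes. A match is a description of letters and not of binding. Below, the 200 bases before the start site are shown 5′ to 3′ in the direction of the gene, with these motifs in capitals: CCAAT and TTTGAA (or their reverse complements) in Cdc20 (chr4:118437344-118437543, minus strand) and Cdk1 (chr10:69352913-69353112, minus strand), and the E2F site in Mcm5 (chr8:75109309-75109508, plus strand) and Cdc6 (chr11:98907951-98908150, plus strand). These genes were chosen after the matches were seen. Here and below, where a gene had several RefSeq start sites, the 1 with the most matches is shown. The Cdc6 window lies inside the gene as GENCODE places it, which begins at position 98907801.
Cdc20: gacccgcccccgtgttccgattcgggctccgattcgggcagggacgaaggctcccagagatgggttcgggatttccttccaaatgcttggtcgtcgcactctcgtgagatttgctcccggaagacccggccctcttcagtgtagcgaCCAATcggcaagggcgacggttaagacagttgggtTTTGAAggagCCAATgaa
Cdk1: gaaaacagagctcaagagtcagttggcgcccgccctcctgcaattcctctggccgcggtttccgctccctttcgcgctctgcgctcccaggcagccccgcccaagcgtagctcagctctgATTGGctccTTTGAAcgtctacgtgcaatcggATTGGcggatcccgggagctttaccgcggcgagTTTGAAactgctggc
Mcm5: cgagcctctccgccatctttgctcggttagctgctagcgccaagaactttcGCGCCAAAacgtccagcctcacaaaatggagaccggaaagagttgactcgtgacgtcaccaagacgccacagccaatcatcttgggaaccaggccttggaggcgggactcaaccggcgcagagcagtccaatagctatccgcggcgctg
Cdc6: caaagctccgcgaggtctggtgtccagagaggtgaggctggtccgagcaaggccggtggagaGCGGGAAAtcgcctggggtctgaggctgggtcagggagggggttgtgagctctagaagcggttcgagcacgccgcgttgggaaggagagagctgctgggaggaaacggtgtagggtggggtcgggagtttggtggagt

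Phase II detoxification split by enzyme class: more glutathione transferase genes rose than fell, and more glucuronosyl- and sulfotransferase genes fell than rose. Of 22 tested glutathione transferase genes 12 rose and 4 fell. Gstm1, a mu class transferase, was 354, 399, 467 and 345 CPM in shLacZ and 1894, 1920.0, 1921 and 1539 in shRgs16. Gstm3 was 12.9, 19.6, 30.02 and 23.7 CPM in shLacZ and 204, 346, 155 and 227 in shRgs16. Neither overlapped, and the rises were 2.22 (SE 0.112, adjusted p 1.6e-07) and 3.43 (SE 0.358, adjusted p 3.0e-04); Gstm2 rose by 2.81 (adjusted p 3.2e-04). Among 25 targets of NRF2, the regulator of the antioxidant response, 12 rose and 7 fell, and with library size alone 17 and 1. Cbr1, a carbonyl reductase, was 55.6, 60.6, 51.8 and 67.2 CPM in shLacZ and 199, 198, 236 and 189.5 in shRgs16 (rise of 1.81, adjusted p 1.7e-07). Nqo1, a quinone reductase, rose by 1.43 (adjusted p 0.0109), and the NRF2 gene Nfe2l2 by 0.25 (adjusted p 0.00475). The antioxidant response element core (TGACNNNGC, both strands) was in 0 of 10 promoters of glutathione transferase genes that rose, 3 of 6 of those not called, 5 of 10 of NRF2 targets that rose, 10 of 20 of all NRF2 targets, and 14% of all genes. No match says only that these letters were not in that window.

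Of 22 UDP-glucuronosyl- and sulfotransferase genes 3 rose and 13 fell (median -0.68), or 6 and 10 with library size alone. Ugt1a1, which conjugates bilirubin, was 429.9, 446, 467 and 443 CPM in shLacZ and 209, 185, 237 and 216 in shRgs16. It fell by 1.07 (adjusted p 1.2e-06), and Ugt3a1, a related transferase, fell from 74.8 ± 7.31 to 15.3 ± 2.72 CPM (by 2.29, adjusted p 7.7e-07). Targets of the drug receptors CAR and PXR gave 4 higher and 8 lower of 22, and 9 and 4 with library size alone. Cyp3a11, the main drug-oxidising P450 of this list, differed by -0.05 (adjusted p 0.656), and was called higher with library size alone (0.25, adjusted p 0.0304), while Abcb1a, a drug efflux pump, rose by 1.49 (adjusted p 9.0e-06).

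Cyp7a1 and Cyp8b1, of bile acid synthesis, and Slc10a1, of bile acid uptake, fell. Of 15 genes of synthesis and conjugation 2 rose and 9 fell (median -0.41), against 5 and 5 with library size alone. Cyp7a1, the rate-limiting enzyme of bile acid synthesis, was 108, 166, 204 and 333 CPM in shLacZ and 73.7, 59.04, 42.8 and 49.7 in shRgs16. Samples varied within both groups, yet none overlapped, and the fall was 1.85 (SE 0.374, adjusted p 0.00646). Cyp8b1, which sets the share of cholic acid, was 317, 327, 255 and 491 CPM in shLacZ and 181, 163, 147 and 133 in shRgs16, a fall of 1.16 (adjusted p 0.00206). Slc10a1 encodes NTCP, the sodium-dependent carrier that takes bile acids up from blood. It was 291, 321, 257 and 316 CPM in shLacZ and 73.5, 59.7, 75.1 and 67.8 in shRgs16, far apart, with a fall of 2.10 (SE 0.0908, adjusted p 7.6e-08). Slco1a4, a sodium-independent organic anion carrier, rose from 11.7 ± 2.40 to 42.8 ± 7.64 CPM (1.88, adjusted p 2.5e-05). Abcb11, the bile salt export pump, overlapped between groups, with a difference of 0.30 (adjusted p 0.0789) that passed without shLacZ replicate 4 (0.42, adjusted p 0.00691) and with library size alone (0.61). Across 20 genes of bile acid transport and feedback 4 rose and 10 fell, or 7 and 7 with library size alone. Of 24 cholesterol synthesis and SREBP2 genes 2 rose and 5 fell, or 8 and 3 with library size alone: Dhcr7, the last enzyme of the pathway, rose by 1.08 (adjusted p 2.0e-05).

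The receptor for growth hormone fell, male-biased genes fell and female-biased genes rose. In mice the pulsatile growth hormone of males acts through its receptor and STAT5B on sex-biased liver genes. Ghr, the receptor gene, was 473, 481, 453 and 497 CPM in shLacZ and 254, 210.1, 279.7 and 219 in shRgs16. The groups did not overlap, and the fall was 0.98 (SE 0.0881, adjusted p 5.3e-06). Stat5b differed by -0.06 (adjusted p 0.426), and was called higher with library size alone (0.24, adjusted p 0.00716). Igf1, the circulating growth factor made under growth hormone, was 415, 473, 402 and 528 CPM in shLacZ and 523, 471, 543 and 498 in shRgs16. It overlapped, with a difference of 0.16 (adjusted p 0.151) that passed without shLacZ replicate 4 (0.24, adjusted p 0.0276) and with library size alone (0.47). Of 24 genes of this axis 2 rose and 6 fell, or 8 and 4 with library size alone. Serpina3k, a serine protease inhibitor induced by growth hormone, fell from 6150.1 ± 693 to 2456 ± 143 CPM (by 1.32, adjusted p 1.6e-06), and Egfr, the epidermal growth factor receptor, from 694 ± 73.99 to 285 ± 62.1 CPM (by 1.28, adjusted p 1.4e-04).

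Of 24 tested male-biased genes 21 fell and none rose (median -1.26), and of 17 female-biased genes 12 rose and none fell (median 1.10). Mup20, the male urinary protein darcin, fell from 20744 ± 1243 to 3348 ± 512 CPM (by 2.63, adjusted p 8.4e-08). Cyp2a4, a female-biased steroid hydroxylase, was 5.06, 10.1, 11.7 and 5.93 CPM in shLacZ and 38.1, 27.9, 95.3 and 28.6 in shRgs16. Replicate 3 of shRgs16 stood above the rest, and the rise of 2.53 (SE 0.544, adjusted p 0.00862) was 1.94 without it.

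With TMM, more genes of fat oxidation fell than rose. Of 32 genes of fatty acid oxidation and ketogenesis 5 rose and 23 fell (median -0.29); with library size alone the counts were 8 and 6 and the median 0.01. Cpt1a, which admits fatty acids to mitochondria, fell by 0.41 (adjusted p 0.00119), a call absent with library size alone (-0.11). Oxct1, which breaks ketones down and is low in healthy liver, rose from 7.17 ± 1.11 to 15.00 ± 0.827 CPM (1.06, adjusted p 1.4e-05). Outside that list, of 21 tested targets of the nuclear receptor PPARalpha 8 rose and 5 fell, or 12 and 3 with library size alone. Their median was 0.05 and their range -1.42 to 3.12. Pdk4, the kinase that shuts off pyruvate dehydrogenase in fasting, was 12.5, 10.2, 7.72 and 13.2 CPM in shLacZ and 78.00, 92.7, 103 and 105 in shRgs16. The rise was 3.12 (SE 0.172, adjusted p 3.0e-06), and no sample overlapped. Acot2, a mitochondrial thioesterase, rose from 14.03 ± 3.56 to 64.7 ± 11.7 CPM (2.21, adjusted p 5.1e-05).

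Of 34 tested nuclear genes of oxidative phosphorylation 31 fell and none rose (median -0.32), and this depended on the scaling, since library size alone gave 3 higher, 9 lower and a median of -0.02. Ndufb3, a complex I subunit, fell from 71.5 ± 5.51 to 44.8 ± 0.9996 CPM (by 0.67, adjusted p 6.2e-06). Mitochondrially encoded genes took 5.93, 6.06, 6.54 and 6.22% of counts in shLacZ and 7.31, 7.64, 7.20 and 6.80% in shRgs16, without overlap (exact permutation test, two-sided p 0.0286). That share is not scaled: with Mup genes out of the total it was higher by 0.495 percentage points (exact p 0.0857), and without shLacZ replicate 1 or 2 the full difference of 1.05 points became 0.968 or 1.01 (exact p 0.0571 each). Scaled by TMM, of 12 tested mitochondrially encoded genes none rose and 3 fell (median -0.12), against 5 and 1 (median 0.18) with library size alone.

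Scd1, of lipid synthesis, and Apob, of lipid export, fell. Of 21 fatty acid synthesis genes 4 rose and 11 fell (median -0.38), or 5 and 7 with library size alone. Scd1, the desaturase that makes oleate, was 4418, 4212, 3379 and 6201 CPM in shLacZ and 1194, 1562, 645 and 1219 in shRgs16. It fell by 1.98 (SE 0.296, adjusted p 0.00102) without overlap. Srebf1, the transcription factor of lipogenesis, fell by 0.37 (adjusted p 0.0162) though single samples overlapped, and was not called with library size alone (-0.08). Fasn, fatty acid synthase, differed by -0.14 (adjusted p 0.161), past the threshold without shLacZ replicate 4 (-0.21, adjusted p 0.0218). Apob, the structural protein of very low density lipoprotein, was 6308, 5842, 4689.7 and 6277 CPM in shLacZ and 2012, 1605, 1714 and 1791 in shRgs16. The fall of 1.70 (SE 0.111, adjusted p 8.4e-07) left every shRgs16 sample far under the controls. Apolipoproteins and lipoprotein enzymes gave 3 higher and 13 lower of 21, or 7 and 6 with library size alone, and Apoa1, the main protein of high density lipoprotein, fell by 0.85 (adjusted p 1.4e-05). Ces3a, a carboxylesterase that mobilises stored triglyceride, fell from 1243 ± 50.7 to 471 ± 123 CPM (by 1.40, adjusted p 1.3e-04), and Hilpda, a lipid droplet protein that restrains lipolysis, rose from 1.80 ± 0.316 to 4.46 ± 0.941 CPM (1.31, adjusted p 1.9e-04).

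In glucose metabolism Pklr, the hepatocyte form of pyruvate kinase, fell, and Pkm, the form of other and dividing cells, rose. Of 29 glycolysis genes 10 rose and 9 fell, or 18 and 2 with library size alone. Pklr fell by 0.58 (adjusted p 3.4e-04), and Pkm was 39.3, 37.6, 42.00 and 41.5 CPM in shLacZ and 87.3, 96.8, 73.5 and 89.6 in shRgs16, a rise of 1.11 (adjusted p 1.5e-06). Of 21 gluconeogenesis and fasting genes 2 rose and 9 fell, or 7 and 1 with library size alone. Pck1, the enzyme that commits carbon to glucose, was 2654, 2858, 2383 and 2933 CPM in shLacZ and 2638, 2531, 2797 and 2713 in shRgs16. The groups overlapped, with a difference of -0.02 (95% interval -0.22 to 0.18, adjusted p 0.863) that was called higher with library size alone (0.28, adjusted p 0.00215). Sik1, a kinase gene induced by cAMP, rose from 22.5 ± 2.27 to 48.3 ± 2.64 CPM (1.10, adjusted p 1.2e-06).

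Of 33 genes of the urea cycle and amino acid breakdown 2 rose and 16 fell, or 7 and 6 with library size alone. Cps1, the first enzyme of the urea cycle, rose by 0.40 (adjusted p 0.00735), while Cdo1, which oxidises cysteine, and Haao, of tryptophan breakdown, fell by 0.90 (adjusted p 3.0e-06) and 0.78 (adjusted p 2.6e-06). Liver genes are also zoned between portal and central vein. Of 22 periportal genes 3 rose and 7 fell, or 8 and 4 with library size alone, and of 26 pericentral genes 6 rose and 6 fell, or 10 and 3. Cyp2f2, the periportal P450, was 1307, 1518, 1350.0 and 1533 CPM in shLacZ and 855, 747, 806 and 567 in shRgs16, apart in every sample, with a fall of 0.94 (adjusted p 5.8e-05). Glul, the glutamine synthetase of the innermost pericentral cells, differed by 0.14 (95% interval -0.03 to 0.32, adjusted p 0.116), and was called higher with library size alone (0.44).

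All livers were taken at the same hour. Clock genes were not called more often than all tested genes, but with TMM more of them fell than rose. Of 17 core clock genes 1 rose and 6 fell (median 0.05), or 10 and 4 with library size alone; of 16 clock output genes none rose and 7 fell, or 5 and 3. Nr1d1, the repressor REV-ERBalpha, was 47.7, 57.00, 46.02 and 72.6 CPM in shLacZ and 26.9, 18.6, 36.4 and 21.5 in shRgs16. It fell by 1.11 (SE 0.241, adjusted p 0.00698). Dbp, a direct output of the clock, was 106, 113, 107 and 99.3 CPM in shLacZ and 66.8, 42.5, 70.8 and 48.1 in shRgs16. It fell by 0.90 (adjusted p 0.00185), and Bhlhe41, another clock repressor, fell by 1.29 (adjusted p 9.4e-04). Neither Nr1d1 nor Dbp overlapped between groups. Arntl, which encodes BMAL1, differed by 0.39 (adjusted p 0.238) and was called higher with library size alone (0.69). Tsc22d3, a glucocorticoid-induced gene with a daily rhythm, fell from 111 ± 18.6 to 58.8 ± 9.85 CPM (by 0.92, adjusted p 0.00149). With 1 time point, a shift of the daily rhythm and a change of its mean level cannot be told apart.

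Chaperones of the endoplasmic reticulum (ER), where secreted proteins fold, fell. Of 29 genes of the unfolded protein and integrated stress response 20 fell and 4 rose (median -0.54), or 13 and 6 with library size alone. Hspa5, the ER chaperone BiP, was 880.4, 1078, 819.5 and 785 CPM in shLacZ and 456, 498, 472 and 549.7 in shRgs16. No sample overlapped, and the fall was 0.85 (SE 0.101, adjusted p 3.8e-05). The 4 that rose belong to the response to amino acid and other stress outside ER folding (Atf3, Asns and the serine synthesis genes Phgdh and Psat1, the last pair named after their values were seen): Atf3, a stress transcription factor, rose by 1.81 (adjusted p 4.6e-05) and Asns, asparagine synthetase, from 3.86 ± 0.608 to 10.3 ± 1.64 CPM (1.42, adjusted p 1.7e-05). That response did not rise as a whole. Of its other listed genes, Ddit3, Chac1 and Atf5 fell, and Sesn2 and Mthfd2 were not called. Those were also named after their calls were seen. Atf4, the transcription factor of that branch, differed by -0.17 (adjusted p 0.0779).

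The promoters of this list (26 of 29 tested genes had one, same RefSeq window) were searched on both strands for the ER stress response element, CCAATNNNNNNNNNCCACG, which holds a CCAAT box. It stood in 7 of 18 genes that fell (38.9%), Hspa5, Hsp90b1, Calr, Canx, Pdia6, Dnajc3 and Creld2. It stood in 0 of 4 that rose and 0 of 4 not called, against 0.137% of 27025 genes. The genes that rose lie outside ER folding, so gene class and direction cannot be told apart in this split. The 200 bases before the start site are shown with the element in capitals for Hspa5 (chr2:34771890-34772089, plus strand), for Hsp90b1 (chr10:86705445-86705644, minus strand), which encodes the chaperone GRP94, and for Creld2 (chr15:88819446-88819645, plus strand), which encodes a secreted ER stress protein. They were chosen after the matches were seen.
Hspa5: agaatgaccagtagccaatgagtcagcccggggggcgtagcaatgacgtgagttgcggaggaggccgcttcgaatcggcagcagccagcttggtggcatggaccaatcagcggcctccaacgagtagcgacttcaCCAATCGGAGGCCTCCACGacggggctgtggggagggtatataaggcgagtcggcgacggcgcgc
Hsp90b1: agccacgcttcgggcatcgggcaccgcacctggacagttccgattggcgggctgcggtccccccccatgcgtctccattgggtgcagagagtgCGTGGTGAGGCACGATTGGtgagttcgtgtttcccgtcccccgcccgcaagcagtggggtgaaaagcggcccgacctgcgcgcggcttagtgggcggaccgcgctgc
Creld2: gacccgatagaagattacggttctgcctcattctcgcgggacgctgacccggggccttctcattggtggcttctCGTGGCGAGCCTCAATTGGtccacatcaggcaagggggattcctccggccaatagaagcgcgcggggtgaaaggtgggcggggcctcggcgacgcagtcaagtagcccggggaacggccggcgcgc

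With TMM, more complement and coagulation genes fell than rose, while lists of other secreted proteins were mixed. Of 33 complement and coagulation genes 1 rose and 14 fell, or 14 and 11 with library size alone. C9, of the terminal complement complex, was 648, 571, 456 and 663 CPM in shLacZ and 261, 225, 247 and 242 in shRgs16, a fall of 1.26 without overlap (adjusted p 5.2e-06), and F11, coagulation factor XI, fell by 1.02 (adjusted p 7.9e-06). Of 29 acute phase genes 6 rose and 4 fell (median 0.11), or 12 and 3 with library size alone, and 8 fell without shLacZ replicate 3. Of 21 hepatokine genes 6 rose and 4 fell, or 10 and 3 with library size alone. Among 15 hepatocyte markers 2 rose and 8 fell, or 7 and 3 with library size alone. Serpina1c, an alpha-1-antitrypsin gene, fell from 6015 ± 363 to 2693 ± 286 CPM (by 1.16, adjusted p 2.8e-06). Alb, albumin, rose by 0.33 (adjusted p 0.0226), and without shRgs16 replicate 2 the value was 0.30 (adjusted p 0.0643); the call was also lost in the fit of all 12 samples (adjusted p 0.0819). Hamp, the iron hormone hepcidin, rose: it was 95.1, 27.5, 74.4 and 34.9 CPM in shLacZ and 281, 316, 225 and 309 in shRgs16. The groups were apart by 2.29 (SE 0.428, adjusted p 0.00473). Id1, which like Hamp is a target of BMP signalling, was 7.30, 3.79, 3.53 and 2.88 CPM in shLacZ and 23.6, 24.4, 21.7 and 24.3 in shRgs16 (rise of 2.42, adjusted p 6.2e-05). Of 23 tested genes of iron handling and metallothioneins 9 rose and 6 fell (median 0.26), or 16 and 5 with library size alone. Of 26 TGF-beta, BMP and activin genes 11 rose and 1 fell (median 0.23), or 17 and none. BMP signalling itself was not tested. Angptl6, a secreted angiopoietin-like protein, fell from 8.61 ± 0.706 to 2.16 ± 0.412 CPM (by 1.99, adjusted p 1.8e-06).

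Of 29 transcription factors and nuclear receptors of hepatocytes 1 rose and 17 fell (median -0.36), or 6 and 7 with library size alone. Hnf4a, the master regulator of hepatocyte identity, was 1007, 955, 871 and 917 CPM in shLacZ and 655, 585, 750.1 and 731 in shRgs16. It fell by 0.46 (adjusted p 9.6e-04) and was not called with library size alone (-0.16). Thrb, the main thyroid hormone receptor of liver, fell from 48.97 ± 7.63 to 27.95 ± 1.51 CPM (by 0.81, adjusted p 6.9e-05).

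**Figure D3:**
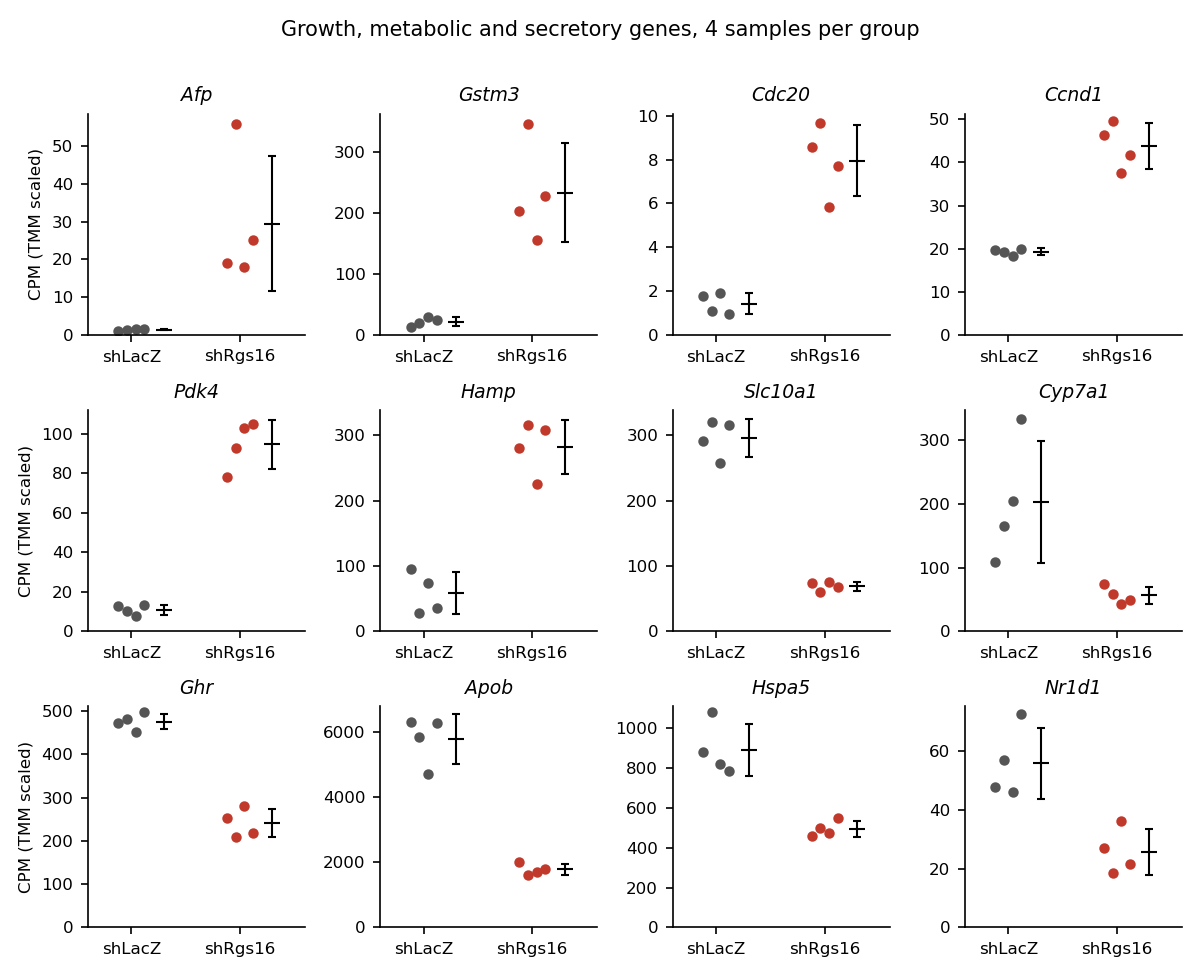
Levels (CPM, TMM-scaled, linear axes) of 12 genes of liver function and growth in the 4 shLacZ and 4 shRgs16 samples; points are samples, bars group means with SD. Afp, Gstm3, Cdc20, Ccnd1, Pdk4 and Hamp are higher and Slc10a1, Cyp7a1, Ghr, Apob, Hspa5 and Nr1d1 lower in shRgs16, each without overlap.

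Immediate early, inflammatory and matrix genes rose. Of 21 immediate early and AP-1 genes 15 rose and none fell (median 0.69); Egr2, a growth-induced transcription factor, rose from 0.791 ± 0.369 to 3.56 ± 0.917 CPM (2.15, adjusted p 1.1e-04). Of 28 chemokine and receptor genes 19 rose and none fell (median 0.95). Cxcl10, a chemokine that draws T cells, was 6.57, 10.3, 15.2 and 9.93 CPM in shLacZ and 23.1, 30.7, 19.5 and 29.7 in shRgs16, a rise of 1.29 (adjusted p 0.00394), and Cx3cr1, a receptor of monocytes and macrophages, rose by 1.84 (adjusted p 9.6e-05). Of 21 antigen presentation genes 12 rose and 2 fell, or 17 and none with library size alone; those of class II included H2-Aa, from 78.6 ± 12.4 to 172 ± 14.1 CPM (1.13, adjusted p 1.3e-05), and H2-DMb1 (1.24, adjusted p 3.3e-06). Of 33 interferon-stimulated genes 12 rose and 3 fell, or 19 and none with library size alone, and Isg15, a classical one, differed by 0.11 (95% interval -0.28 to 0.50, adjusted p 0.592).

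Of 18 collagen genes 14 rose and 3 fell (median 1.13), and of 37 genes of matrix turnover 27 rose and 1 fell (median 1.21). Col1a1, the main fibrillar collagen, was 24.5, 12.3, 15.6 and 11.9 CPM in shLacZ and 155, 133, 50.03 and 83.3 in shRgs16. Samples varied within shRgs16 but lay above all controls, by 2.71 (SE 0.442, adjusted p 0.00257). Col8a1, a short-chain collagen, rose by 3.12 (adjusted p 5.7e-04). Mmp12, the macrophage elastase, was 2.75, 5.10, 7.64 and 2.18 CPM in shLacZ and 46.1, 60.4, 34.01 and 49.02 in shRgs16 (rise of 3.42, adjusted p 3.9e-04), Mmp13, a collagenase, rose by 3.64 (adjusted p 3.0e-04), and Timp1, their inhibitor, by 2.73 (adjusted p 9.1e-05). Tgfb1, the leading fibrogenic cytokine, rose by 0.73 (adjusted p 2.3e-04).

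Markers of cells other than hepatocytes moved with these groups, and their part in the immune and matrix results was not tested. Among markers of Kupffer cells and other macrophages, 17 of 21 rose and none fell, with a summed level of 1371 to 1547 CPM in shLacZ and 1911 to 2117 in shRgs16. Gpnmb, a glycoprotein of lipid-laden macrophages, was 2.40, 1.74, 3.66 and 1.26 CPM in shLacZ and 26.4, 43.4, 25.6 and 38.4 in shRgs16, and rose by 3.87 (SE 0.324, adjusted p 5.1e-05); Trem2, a receptor of similar cells, rose by 2.32 (adjusted p 2.2e-05). Clec4f, the marker of resident Kupffer cells, overlapped, with a difference of 0.19 (95% interval -0.20 to 0.57, adjusted p 0.359), and was called higher with library size alone (0.48). For T cells and NK cells 23 of 28 markers rose and 1 fell (summed 41.1 to 71.2 against 89.8 to 113 CPM): Cd3e, a T cell receptor subunit, rose by 1.24 (adjusted p 0.00125), Pdcd1, the checkpoint receptor PD-1, by 1.74 (adjusted p 1.3e-04) and Gzma, a granzyme, by 1.59 (adjusted p 8.9e-05). Of 15 B and plasma cell markers 5 rose and none fell, or 11 and none with library size alone, while the summed levels overlapped (148 to 253 and 217 to 286 CPM). Of 12 neutrophil markers 1 rose and none fell, and S100a8, their main cytosolic protein, differed by -0.03 (adjusted p 0.966).

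For stellate cells and fibroblasts 11 of 19 markers rose and 2 fell (summed 212 to 248 against 243 to 286 CPM). Acta2, smooth muscle actin of activated stellate cells, was 1.29, 1.61, 4.47 and 2.88 CPM in shLacZ and 25.2, 27.8, 10.9 and 17.2 in shRgs16, with a rise of 2.98 (adjusted p 0.0016) and no overlap, and Tagln, a contractile protein, rose by 2.36 (adjusted p 8.4e-05). Lrat, the retinol-storing enzyme of quiescent stellate cells, differed by -0.18 (adjusted p 0.146), and was called lower without shLacZ replicate 4 (-0.26, adjusted p 0.0260). Of 20 endothelial markers 9 rose and none fell, while 17 rose without shRgs16 replicate 4 and 18 with library size alone. Stab2, a scavenger receptor of sinusoids, was 64.2, 67.9, 61.4 and 68.2 CPM in shLacZ and 87.6, 89.1, 87.3 and 57.4 in shRgs16; its difference of 0.30 (adjusted p 0.0844) became 0.43 (adjusted p 2.3e-04) without shRgs16 replicate 4. Wnt9b, a signal of central vein endothelium, rose by 0.89 (adjusted p 0.00253). Of 16 cholangiocyte and progenitor markers 9 rose and none fell, but 5 rose without shLacZ replicate 3 or without shRgs16 replicate 2; Prom1, a progenitor surface protein, rose by 1.98 (adjusted p 2.8e-05). Of 7 tested erythroid markers 1 rose and 2 fell, or 4 and 2 with library size alone; 5 rose without shRgs16 replicate 3, and none rose without any 1 of 5 other samples, in limma-voom, with a replicate block or in the fit of all 12 samples. Alas2, the erythroid enzyme that starts haem synthesis, fell from 132 ± 11.3 to 42.9 ± 4.63 CPM (by 1.62, adjusted p 1.7e-07).

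**Figure D4:**
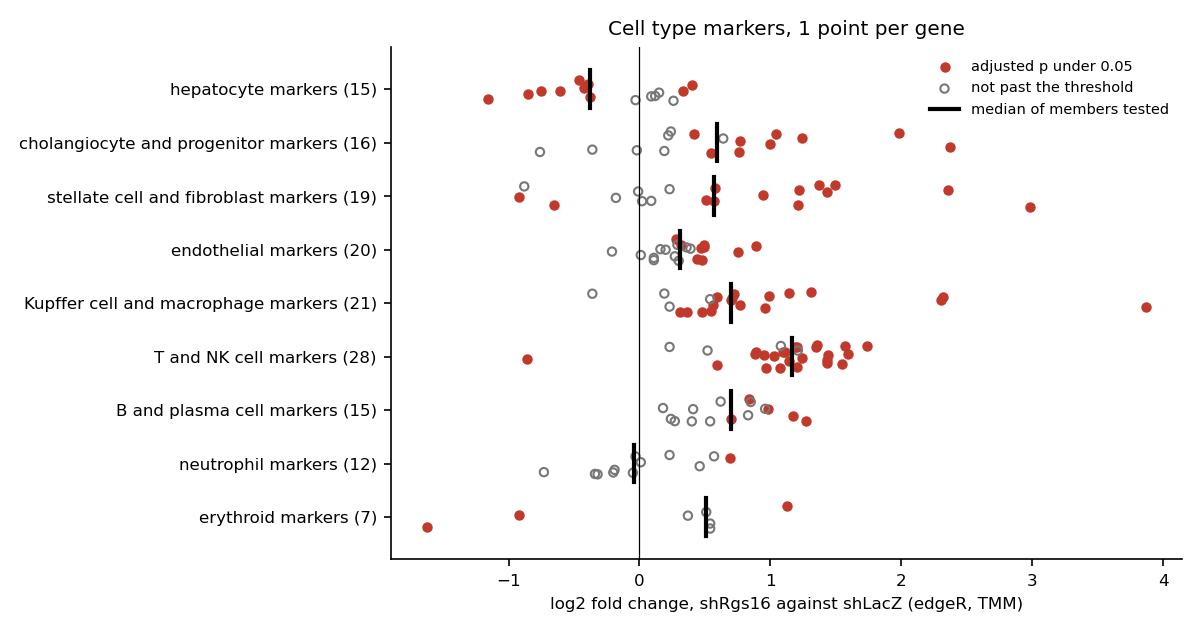
Log2 fold change (shRgs16 over shLacZ) of each tested marker in 9 cell type lists; filled points have an adjusted p under 0.05 and the bar is the list's median. Macrophage and T and NK cell markers lie mostly to the right of 0, with medians of 0.70 and 1.16, and hepatocyte markers have a median of -0.38.

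The shRgs16 livers were last set against the 4 livers with the G0s2 hairpin, in a fit of all 12 samples, which asks what differs between the hairpins directly. Of 16018 tested genes 3281 were higher (20.5%) and 3358 lower (21.0%) in shRgs16 than in shG0s2. Levels here are CPM scaled over 12 samples, as mean ± SD (n = 4 each), and the comparisons with shLacZ share its samples. Rgs16 itself was 149 ± 46.2 in shLacZ, 26.2 ± 10.9 in shRgs16 and 59.05 ± 11.4 in shG0s2; the log2 difference between the last 2 was -1.18 (adjusted p 0.0169). Of 40 mitosis genes none was higher and 23 were lower in shRgs16 than in shG0s2, and of 36 DNA replication genes 2 and 30. Ccnd1 was 20.9 ± 0.751 in shLacZ, 47.5 ± 5.70 in shRgs16 and 139 ± 21.99 in shG0s2, lower in shRgs16 than in shG0s2 by 1.55 (SE 0.105, adjusted p 1.3e-07). Ccne1 was 3.997 ± 1.03, 4.17 ± 0.349 and 18.3 ± 3.75 in the same order, lower than in shG0s2 by 2.12 (adjusted p 2.4e-07). Several signalling genes lay on the same side of shLacZ in both hairpin groups. In the same order, means were 194, 112 and 133 for Gcgr, 48.5, 30.99 and 24.5 for Adra1b and 11.01, 4.92 and 3.15 for P2ry4. They were 107, 145 and 165 for Gnai2, 5.46, 12.03 and 11.8 for Gng2 and 1.44, 3.94 and 4.44 for Adcy3. Avpr1a (4.15, 11.05 and 5.14) and Adcy1 (1.09, 3.19 and 0.799) were higher mainly in shRgs16. The genes described above as decreases of largest fold had lower means in shG0s2 than in shLacZ too. In the same order, means were 201, 2.75 and 0.301 for Moxd1 and 271, 26.8 and 3.65 for Obp2a. Of these genes, Obp2a and Ces4a were called higher in shRgs16 than in shG0s2, and Cfap53, Hectd2os and Slc15a5 lower. Moxd1, Kcnk1, Sult2a7, Ces2b and Vmn2r20 were not called between the hairpins.

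Genes of several hepatocyte functions were higher with the Rgs16 hairpin than with the G0s2 hairpin. Of 33 urea cycle and amino acid genes 30 were higher and none lower, of 33 complement and coagulation genes 29 and 1, of 21 gluconeogenesis genes 14 and none, and of 25 male-biased genes 19 and 2. Cps1 was 3805 ± 488 in shLacZ, 5025 ± 380.5 in shRgs16 and 2004 ± 430.0 in shG0s2 (shRgs16 over shG0s2, log2 1.33, adjusted p 3.5e-06). Igf1 was 492 ± 61.2, 552 ± 34.98 and 261 ± 26.9 in that order (log2 1.08, adjusted p 4.8e-07). Cyp8b1 was 376 ± 108, 169 ± 22.4 and 41.1 ± 28.3 (log2 2.04, adjusted p 0.00414), and of 15 bile acid synthesis genes 11 were higher and 1 lower than in shG0s2. Cyp3a44 also separated the hairpins, at 0.30 ± 0.181, 5.96 ± 2.07 and 0.476 ± 0.222 (log2 3.65, adjusted p 4.8e-06).

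Other genes were lower with the Rgs16 hairpin than with the G0s2 hairpin. Scd1 was 4928 ± 1271 in shLacZ, 1253 ± 409 in shRgs16 and 5253 ± 1443 in shG0s2, lower than in shG0s2 by 2.07 (adjusted p 1.6e-04). Cyp2a4 was 8.90 ± 3.51, 51.6 ± 35.2 and 427 ± 156, lower by 3.05 (adjusted p 7.4e-04), and Ddah1 139 ± 7.84, 57.7 ± 2.48 and 134 ± 7.88, lower by 1.21 (adjusted p 2.2e-09). Of 25 NRF2 targets none was higher and 19 were lower than in shG0s2, of 18 collagens 1 and 10, and of 38 matrix turnover genes 1 and 20. Afp was 1.54 ± 0.250, 31.99 ± 19.3 and 6.70 ± 2.10, higher than in shG0s2 by 2.25 (adjusted p 0.00106). H19, at 1.23 ± 0.274, 172 ± 59.9 and 244 ± 146, differed between the 2 hairpins by -0.51, which did not pass the test (adjusted p 0.359). With library size alone 1571 genes were higher and 6052 lower than in shG0s2, and the median of the genes tested in both comparisons moved from 0.00 to -0.20. The 10 lists counted in this contrast kept their direction under that scaling, for example 27 higher and 1 lower for the urea cycle and amino acid list.

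**Figure D5:**
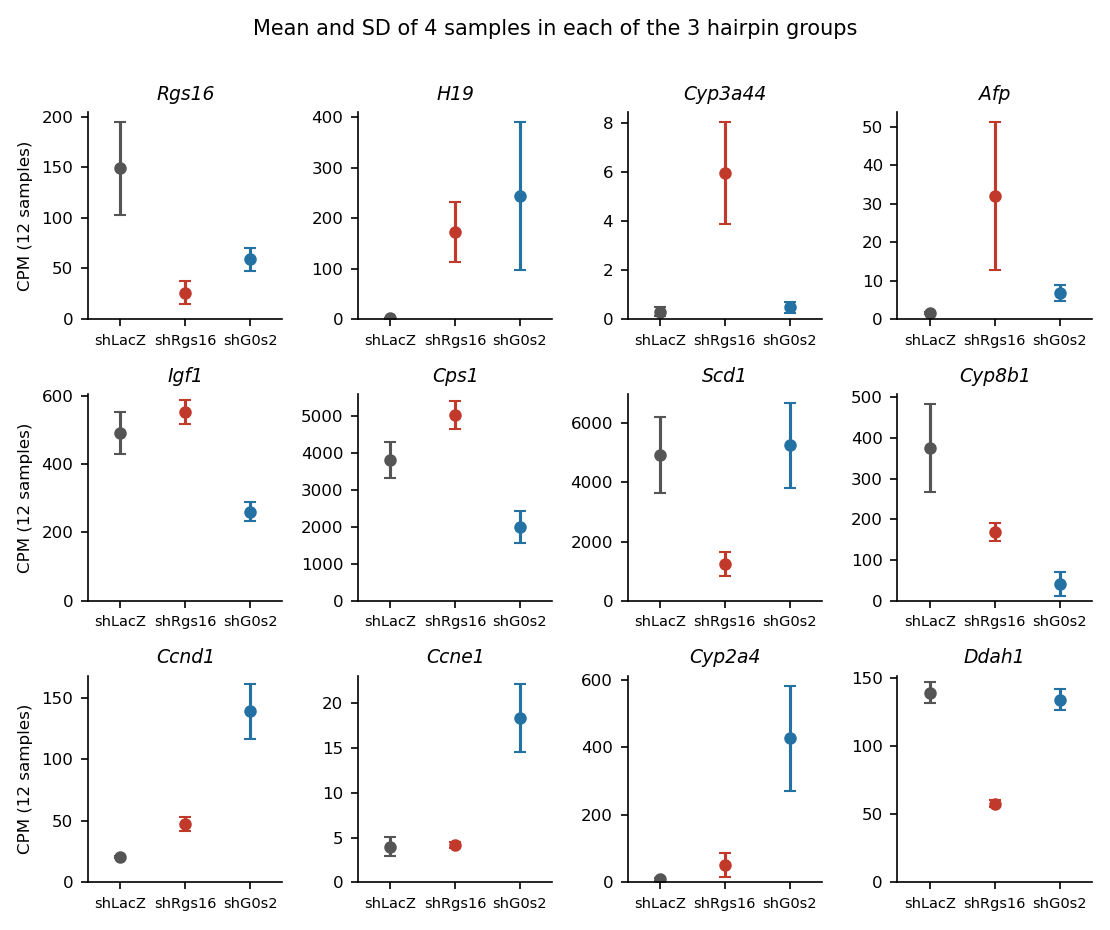
Mean CPM (scaled over 12 samples) with SD of 12 genes in shLacZ, shRgs16 and shG0s2 (n = 4 each). Cyp3a44 is highest in shRgs16, Ccne1, Cyp2a4 and Ccnd1 are highest in shG0s2, and Ddah1 is lowest in shRgs16.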

How the data were processed

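Total RNA of liver was depleted of ribosomal RNA and sequenced, per the labels' protocols. The authors deposited, per the file headers, estimated counts per gene and sample, TPM, and, for each hairpin against shLacZ, the fold (a ratio), the log2 of it, and a p-value as computed and as adjusted. The tools in the submitters' processing notes are Bowtie2 2.2.9, DESeq2, GATK 3.8, SAMtools 1.9 and fastp 0.19.5. For genome build, annotation, counting program and strand setting, the value is not given in the sources used here. By the adjusted p-values of the authors' deposited table, 3731 genes were higher and 3777 lower in shRgs16 at 0.05.

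Samples were grouped by their titles. Estimated counts, which divide shared reads between like genes, were rounded, filtered with filterByExpr (15324 genes kept), scaled by TMM, and tested in R 4.3.3 with edgeR 4.0.16 (glmQLFit with robust estimation and glmQLFTest, the quasi-likelihood test, two-sided), at a false discovery rate of 0.05. The 4 shRgs16 and 4 shLacZ samples were fitted alone, and shRgs16 against shG0s2 in a fit of all 12. Shares of library counts were compared with exact permutation tests. Replicates of a group differed beyond counting noise (12.12 to 47.26 as chi-square over its degrees of freedom), so none was treated as a repeat of another. The test was also run on simulated data in which few genes changed, equally up and down, and no large share of counts moved. That run does not address the choice of scaling, so no conclusion about it is drawn.

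Symbols and positions were those of GENCODE for GRCm38, which all 55536 identifiers matched. The 66 gene lists, the genes named and the comparison itself were chosen with earlier results of these data known. Named genes are Rgs16 and G0s2, the 10 largest increases and 10 largest decreases past the threshold with an official symbol, non-overlapping groups and a mean of 1 CPM or more (pseudogenes and Mup genes aside), and from each list members picked for their role and the 2 with the largest change; some of these are not reported here. Alternatives were relative log expression scaling, library size alone with or without Mup genes, DESeq2 1.42.0, limma-voom (limma 3.58.1), other filters, a replicate block, a 2-fold threshold, the fit on all 12 samples, and each sample left out. At 24855361 to 27170443 counts per sample the number of samples limits the precision, except for genes near 0.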

Additional observations from a re-analysis of the deposited data

Results flagged for a closer look

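Among 284 groups of 4 samples examined, 13 held 1 sample set apart from the other 3 by most of the group's range (Dixon's test), where chance alone sets apart about 1 in 20. In shLacZ, replicate 4 had 0.566 CPM of Akr1b7 against 0.122 to 0.131 in the others, 52.9 of Rgs5 (others 43.5 to 44.2), and 0.489% of counts in small RNA genes against 0.248% to 0.263%. Replicate 1 of shLacZ had 117 CPM of Ddah1 (others 131 to 133) and 16.9 of Tgfb1 (others 14.4 to 14.7), replicate 2 had 79.7 CPM of Ndufb3 (others 67.8 to 69.6), and in replicate 3 the 100 genes highest in shLacZ took 39.97% of counts (others 42.7% to 43.1%). In shRgs16, replicate 4 had 1539 CPM of Gstm1 (others 1894 to 1921), 82.1 of Acot2 (others 57.5 to 60.6) and 57.4 of Stab2 (others 87.3 to 89.1). Replicate 3 of shRgs16 had 95.3 CPM of Cyp2a4 (others 27.9 to 38.1), replicate 2 had 0.436 of Rgs4 (others 0.823 to 0.862), and replicate 1 had 49.8 of Alas2 (others 40.3 to 40.8). No sample held more than 3 of the 13.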

How the results depend on the processing

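The counts of genes in shRgs16 against shLacZ (3771 higher, 3749 lower) moved by over 1.5 times with library size alone (7683 and 1280), with library size without Mup genes (5713 and 2009) and with a 2-fold threshold (1081 and 457). Relative log expression scaling, other filters, other tools and the fit of all 12 samples gave 3586 to 4077 higher and 3550 to 3792 lower, and leaving out 1 sample 3220 to 3706 and 3267 to 3691. Against shG0s2 (3281 and 3358), the same 3 settings gave 1571 and 6052, 1656 and 5788, and 521 and 749, and leaving out 1 sample 2855 to 3379 and 2868 to 3490. The difference in mitochondrial share (1.05 points) was 0.495 without Mup genes in the total (exact permutation p 0.0857) and 0.918 to 1.20 with 1 sample left out. Among 137 named genes none reversed except, with library size alone, Gnas to 0.21, Gnaq to 0.29, Cyp3a11 to 0.25, Stat5b to 0.24 and Pck1 to 0.28, all uncalled in the TMM fit and called with library size alone, and Rgs5, called in the TMM fit, to 0.04. With a replicate block, 3566 genes were higher and 3538 lower, and 3242 and 3292 against shG0s2; Nqo1 (adjusted p 0.0510) and Alb (adjusted p 0.052) lost their call. No source used here says whether the replicate numbers pair the samples. Same-numbered samples deviated together with r of 0.063, -0.089, -0.082 and 0.092 across genes, and unlike-numbered ones with -0.08 to 0.14. Low correlations cannot exclude a pairing in the design. No cause of these movements was tested.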
